A study of Mus musculus with 6 samples.

Results

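Endothelial cells line blood and lymphatic vessels, and 31 genes that mark them were followed in RNA from EGFP-positive cells of mouse embryos. The genes were a fixed list of vascular receptors, junction proteins, regulators and secreted factors, and each one had at least 1 probe set that the platform annotation assigned to its symbol alone. They are 31 of the 18193 genes measured in this way, represented by 49 probe sets, and 12 of them have more than 1. Cells were taken from E11.5 embryos, from the region of the intermediate mesoderm, the tissue from which kidneys and gonads arise, and were sorted by EGFP fluorescence. The study compared Pax2 heterozygotes, whose titles give an EGFP allele and a normal one (EGFP/+), with Pax2 nulls, whose titles give EGFP on both alleles (EGFP/EGFP), on 3 arrays each. All 6 samples therefore carry EGFP and at least 1 changed allele, no wild-type sample was analysed here, and the dose of EGFP differs between the groups that the sort collected. The labels name no strain, litter or number of embryos, so that p-values rest on the spread between these samples alone, part of which may be technical. Pax2 itself is not analysed here, and the genotype labels were not checked against it.

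In the developing embryo, endothelial cells arise from mesodermal precursors under the receptor Kdr and its ligand Vegfa, and ETS factors such as Erg and Fli1 drive many of their genes. Junction proteins such as Cdh5 and Pecam1 then hold the vessel wall together, and the Tie receptors with their angiopoietin ligands govern its maturation. Flt4 and Lyve1 become prominent in lymphatic vessels. Several of these genes are also active outside the endothelium, Stab1 and Lyve1 in macrophages and Tal1 and Fli1 in blood precursors among them.

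Values are log2 RMA intensities, and the median over all probe sets lay between 6.12 and 6.24 in the 6 arrays. The 10 markers listed for the labelled tissue were Osr1, Wt1, Pax8, Lhx1, Gata3, Six2, Eya1, Sall1, Emx2 and Ret. They were chosen with earlier results of these data known and so are no independent check. All 10 were above the 33rd percentile of probe sets, a log2 value of 4.81, and 5 of them fell in null, where 0.583% of all genes did. These were Lhx1, Ret, Gata3, Sall1 and Eya1, with changes from -3.37 (Ret) to -1.04 (Eya1) on the log2 scale. Of the endothelial genes, 11 of 31 had a mean under that percentile, against 26.2% of all genes. Those 11 were Pecam1, Flt1, Tek, Tie1, Esam, Robo4, Clec14a, Nos3, Apln, Tal1 and Stab2. Differences are compressed at such levels, and an array gives no true zero, so a dim value shows neither presence nor absence of a transcript. The sorted cells are a bulk sample, in which fewer cells of a type and less RNA per cell cannot be told apart.

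Promoter sequences were at hand for 16 of the 31 genes, 21 start sites in all (RefSeq, build GRCm38.p6). The 250 bases upstream of 4 starts are shown 5′ to 3′ on the strand of the gene, to set genes with different values side by side. Fli1 and Ramp2, the members that passed, are not among the 16. Flt4 had a probe set that was lower in null, Kdr is its relative with overlapping groups, Cd34 had all null arrays above all heterozygote arrays, and Tie1 stayed dim in every array. Capitals mark GGAA, the core bound by ETS factors, or TTCC, the same core on the opposite strand.
Flt4, chr11:49609429-49609678, plus strand: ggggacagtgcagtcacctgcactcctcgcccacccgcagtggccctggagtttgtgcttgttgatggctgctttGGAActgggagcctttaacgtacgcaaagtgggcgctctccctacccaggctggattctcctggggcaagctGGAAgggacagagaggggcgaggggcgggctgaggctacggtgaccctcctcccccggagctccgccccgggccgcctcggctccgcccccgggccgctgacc
Kdr, chr5:75978456-75978705, minus strand: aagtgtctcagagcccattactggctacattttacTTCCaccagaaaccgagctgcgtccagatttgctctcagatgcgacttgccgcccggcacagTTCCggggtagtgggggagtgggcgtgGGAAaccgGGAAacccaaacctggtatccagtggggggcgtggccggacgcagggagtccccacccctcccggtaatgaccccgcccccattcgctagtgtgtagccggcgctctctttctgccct
Cd34, chr1:194938571-194938820, plus strand: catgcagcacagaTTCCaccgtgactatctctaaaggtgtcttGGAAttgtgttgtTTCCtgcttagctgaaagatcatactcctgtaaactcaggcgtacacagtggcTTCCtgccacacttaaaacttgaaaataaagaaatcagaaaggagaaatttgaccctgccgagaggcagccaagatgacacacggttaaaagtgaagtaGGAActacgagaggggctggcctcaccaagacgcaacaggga
Tie1, chr4:118489850-118490099, minus strand: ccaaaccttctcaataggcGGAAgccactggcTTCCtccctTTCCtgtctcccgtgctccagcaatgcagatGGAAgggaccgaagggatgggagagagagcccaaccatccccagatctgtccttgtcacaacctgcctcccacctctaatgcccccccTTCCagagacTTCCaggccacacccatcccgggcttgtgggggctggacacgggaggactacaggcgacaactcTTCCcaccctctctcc
The core occurred 2 times upstream of Flt4, 4 times upstream of Kdr, 5 times upstream of Cd34 and 7 times upstream of Tie1. It occurred in 20 of the 21 member windows and in 93.4% of all 32851 windows of this length, so that its presence does not set these genes apart. The longer form CCGGAA, searched on both strands and containing the core, was found in 1 of the 21 windows, that of Kdr, and in 12.0% of all windows. The GATA element AGATAA, likewise on both strands, was found in 2 of the 21 windows and in 9.99% of all. Such matches describe letters and not occupied sites.

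Of the endothelial genes, 1 rose and 1 fell between heterozygous and null cells. Across all genes, 1.39% passed the test (limma, adjusted p under 0.05 over the 18193 genes), and among the 31 endothelial genes 2 passed. Fli1, an ETS transcription factor of endothelium and blood, rose 2.79-fold, and Ramp2, which turns the calcitonin-like receptor into a receptor for adrenomedullin, fell 2.95-fold. The share of all genes that rose was 0.808% and the share that fell 0.583%. The other 29 did not pass. Changes were positive for 17 members and negative for 14, with a median of 0.04 (log2, null minus heterozygote) against -0.02 over all genes. In size, 28 of 31 changes (90.3%) were under 1 log2 unit and 23 (74.2%) under 0.5, against 96.6% and 89.1% of all genes, and the median size was 0.30 against 0.15. At an unadjusted p under 0.05 stood 8 members (25.8%), 5 higher and 3 lower in null, where 9.73% of all genes did.

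**Figure D1:**
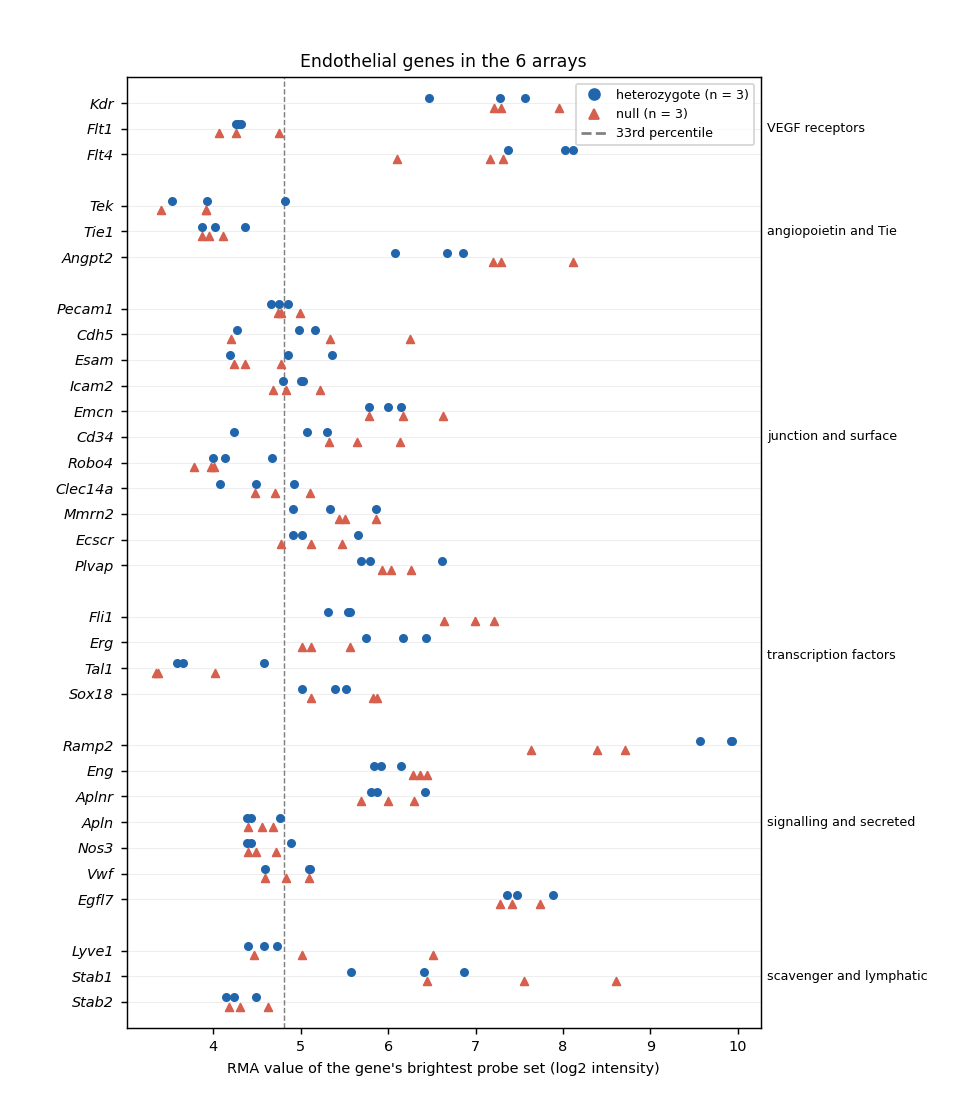
Each point is the log2 RMA intensity of a gene's brightest probe set on 1 array, with heterozygotes as blue circles and nulls as red triangles (3 arrays each) and the 33rd percentile of probe sets as a dashed line. The groups separate in Fli1, Ramp2, Flt4, Erg, Angpt2, Cd34 and Eng and overlap in the other 24 genes; levels of different genes are not comparable.

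Arrays of the genotypes did not overlap for 7 of 31 members, 4 with null above (Fli1, Angpt2, Cd34 and Eng) and 3 with null below (Ramp2, Flt4 and Erg). Over all genes, 13.6% did not overlap, 6.49% with null above and 7.16% with null below.

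The receptors for vascular endothelial growth factors gave 0 passes in limma among 3 genes when each gene was read from its brightest probe set, 1 of them (Flt4) being at an unadjusted p under 0.05. Flt4, the receptor for Vegfc and Vegfd, read 7.37, 8.12 and 8.02 in heterozygotes 1 to 3 and 7.17, 7.31 and 6.11 in nulls 1 to 3 on that probe set. The highest null array thus lay just below the lowest heterozygote array, and the change was -0.97 ± 0.35 (SE; limma, adjusted p = 0.355). The dimmer probe set of Flt4 separated the groups more widely, with 6.72 ± 0.11 in heterozygotes and 5.28 ± 0.18 in nulls (SD, n = 3 each). It fell 2.72-fold, a change of -1.44 ± 0.16, when every probe set was tested as a unit (limma, adjusted p = 0.0140), a test in which 0.691% of all 45037 probe sets passed. With a gene's probe sets averaged, Flt4 fell as well (limma, adjusted p = 0.0303). The call for Flt4 therefore depended on which of its probe sets stood for it.

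Kdr, the main receptor for Vegfa, read 7.28, 7.57 and 6.47 in heterozygotes and 7.21, 7.29 and 7.95 in nulls. These groups overlapped, and the 95% interval of the change ran from -0.36 to 1.11, so that a rise of 1 log2 unit lies inside it. Flt1, a decoy receptor for Vegfa, stayed between 4.07 and 4.75 in all arrays, near the bottom of the range, with a change of 0.07 ± 0.20 (SE). The 4 probe sets of Flt1 differed in sign.

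Among the Tie receptors and their ligand, Angpt2 had the largest change and did not pass. Angpt2, an angiopoietin that destabilizes vessels, read 6.86, 6.07 and 6.67 in heterozygotes and 7.30, 7.20 and 8.11 in nulls. Every null array was above every heterozygote array, and the change was 1.0 ± 0.30 (SE; limma, adjusted p = 0.232). The second probe set of Angpt2 gave -0.03 ± 0.18 at means of 5.19 and 5.16 and so did not share that difference. Tek and Tie1, the receptors themselves, were dim. Tek was highest in heterozygote 1, at 4.82, with the other 5 arrays from 3.40 to 3.93, while Tie1 lay between 3.87 and 4.36 throughout. Their changes were -0.35 for Tek (95% interval -1.11 to 0.41) and -0.11 for Tie1 (-0.52 to 0.31).

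Junction and surface genes, 11 in number, gave no pass in limma, 1 of them (Cd34) being at an unadjusted p under 0.05, and their changes ran from -0.34 to 0.83 with a median of 0.08. Pecam1, an adhesion molecule at endothelial contacts, had the narrowest spread over the 6 arrays among these genes, from 4.66 to 4.99. Its change of 0.08 had a 95% interval of -0.27 to 0.43, so a change of 1 log2 unit in the array value lies outside it in either direction. Pecam1 was dim, however, and differences are compressed at such levels, so the interval does not bound the change of its transcript. Cdh5, the cadherin of endothelial junctions, read 4.98, 4.27 and 5.16 in heterozygotes and 5.34, 6.25 and 4.20 in nulls, the nulls holding both the highest and the lowest array. Its other probe set gave a change of opposite sign, -0.32 ± 0.49 against 0.46 ± 0.49 (SE), and neither passed. Cd34, a sialomucin of endothelium and of blood progenitors, read 5.30, 4.24 and 5.07 in heterozygotes and 5.65, 6.13 and 5.33 in nulls. Null 3 exceeded heterozygote 1 by only 0.03, and the change of 0.83 ± 0.32 did not pass (limma, adjusted p = 0.409).

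The remaining surface genes overlapped between genotypes. Emcn, an endothelial sialomucin, had a change of 0.22 ± 0.23 (SE). Plvap, which forms the diaphragms of endothelial openings, was highest in heterozygote 1 at 6.62 and between 5.69 and 6.26 in the others, a change of 0.04 ± 0.26. Robo4, a guidance receptor of vessels, and Esam, an adhesion molecule of tight junctions, were each at a change of -0.34, and Icam2, an adhesion molecule that leukocytes bind, was at -0.03. Clec14a, a lectin-like receptor, Mmrn2, its matrix ligand, and Ecscr, a surface regulator of endothelial migration, had changes of 0.26, 0.23 and -0.07.

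**Figure D2:**
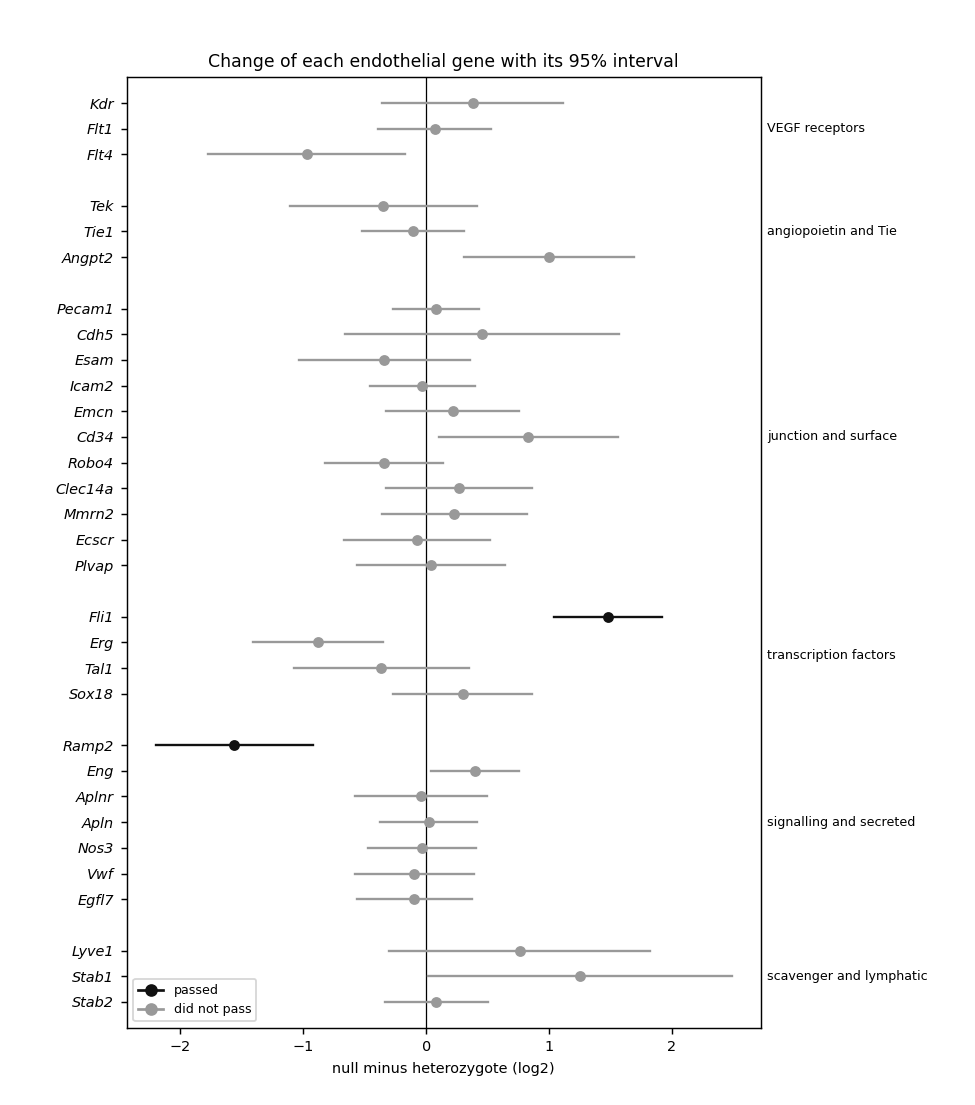
Each point is the change of 1 endothelial gene (null minus heterozygote, log2) from the limma fit, with its 95% interval, grouped by role, and black marks genes that passed. Fli1 at 1.48 and Ramp2 at -1.56 are the 2 that passed, and most of the others have intervals that include 0.

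The 4 transcription factors moved in different directions. Fli1 read 5.54, 5.31 and 5.56 in heterozygotes and 6.99, 7.22 and 6.64 in nulls. The lowest null array exceeded the highest heterozygote array by more than 1 log2 unit, and the change was 1.48 ± 0.19 (SE; limma, adjusted p = 0.0126). A second probe set of Fli1 had a change of 1.29 ± 0.48 with overlapping groups and did not pass on its own (limma, adjusted p = 0.516). Omitting heterozygote 2, heterozygote 3 or null 1 ended the call (adjusted p = 0.0594, 0.0596 and 0.0608 in limma), while its change stayed between 1.35 and 1.63.

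Erg, the ETS factor closest to Fli1, lay the other way, at 5.74, 6.43 and 6.16 in heterozygotes and 5.56, 5.02 and 5.12 in nulls. Both of its probe sets had all null arrays below all heterozygote arrays, with changes of -0.88 ± 0.23 and -0.65 ± 0.27 (SE), and the gene did not pass (limma, adjusted p = 0.152). Tal1, a regulator of blood and endothelial precursors, was at 4.58 in heterozygote 1 and from 3.34 to 4.02 in the other arrays, a change of -0.37 ± 0.31. Sox18, a factor of arterial and lymphatic endothelium, had a change of 0.30 ± 0.25.

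Among 7 genes of signalling and secreted products, Ramp2 fell and 6 did not pass. Ramp2 read 9.93, 9.57 and 9.92 in heterozygotes and 7.64, 8.71 and 8.38 in nulls. All nulls were lower, null 1 the most, and the change was -1.56 ± 0.28 (SE; limma, adjusted p = 0.0391). In fits that omitted 1 array, limma's adjusted p for Ramp2 was 0.0491 without null 2 and between 0.0646 and 0.156 in the other 5, with the change between -1.79 and -1.26. With every probe set tested as a unit, Ramp2 did not pass (limma, adjusted p = 0.0682). Calcrl, the receptor that Ramp2 accompanies, was at 8.83 ± 0.20 in heterozygotes and 7.91 ± 0.39 in nulls (SD, n = 3 each), with all nulls lower and no pass (limma, adjusted p = 0.127). Adm, the adrenomedullin ligand, had a change of -0.38 with overlapping groups.

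Eng, a co-receptor for ligands of the TGF-beta family, read 5.91, 5.84 and 6.15 in heterozygotes and 6.28, 6.44 and 6.37 in nulls. The null arrays were all higher, but by a small step, 0.40 ± 0.16 (SE; limma, adjusted p = 0.431). A second probe set of Eng was dim and had overlapping groups, with a change of 0.15 ± 0.16. Egfl7, a secreted factor of endothelium, had 4 probe sets with changes from -0.17 to -0.10, all of them with overlapping groups. Its brightest probe set lay between 7.28 and 7.89, and the 95% interval of its change was -0.56 to 0.37. Aplnr and its ligand Apln, Nos3, the endothelial nitric oxide synthase, and Vwf, the clotting factor stored in endothelial cells, had changes of -0.04, 0.02, -0.04 and -0.10. The dimmer probe set of Aplnr spread widely, from 3.17 in null 1 to 7.30 in heterozygote 1, with a change of -0.74 ± 0.93 (SE).

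The scavenger receptors Stab1, Stab2 and Lyve1 were positive in change without passing. Stab1, shared by sinusoidal endothelium and macrophages, read 6.87, 5.58 and 6.41 in heterozygotes and 6.45, 8.60 and 7.56 in nulls, a change of 1.25 ± 0.54 (SE; limma, adjusted p = 0.507). Lyve1, a hyaluronan receptor of lymphatic endothelium and of macrophages, stood at 6.51 in null 2 and from 4.39 to 5.01 elsewhere. Null 2 was thus the highest array for both. Stab2, a relative of Stab1, was dim, between 4.15 and 4.63. Macrophage markers had positive changes in 15 of 16, with a median of 0.95. Null 2 was the highest null array in 15 of the 16 (93.8%), against 67.7% of the members and 34.0% of all genes. Summed over the list, the linear intensity of the macrophage markers ranged from 863 to 1831 in heterozygotes and from 1861 to 5047 in nulls. No macrophage marker passed in limma, and 8 were at an unadjusted p under 0.05, where 9.73% of all genes were. Of the 16, 3 were under the 33rd percentile (Adgre1, Ptprc and Itgam). The smallest p belonged to Mrc1 (change 2.39), Laptm5 (1.28), Tyrobp (1.49) and C1qc (1.67). With the array pairs described below as a block, 5 of the 16 rose, namely Tyrobp, Laptm5, C1qb, Mrc1 and C1qc, where 2.67% of all genes did. Their part in the values of Stab1, Lyve1, Cd34 and Fli1 was not tested.

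**Figure D3:**
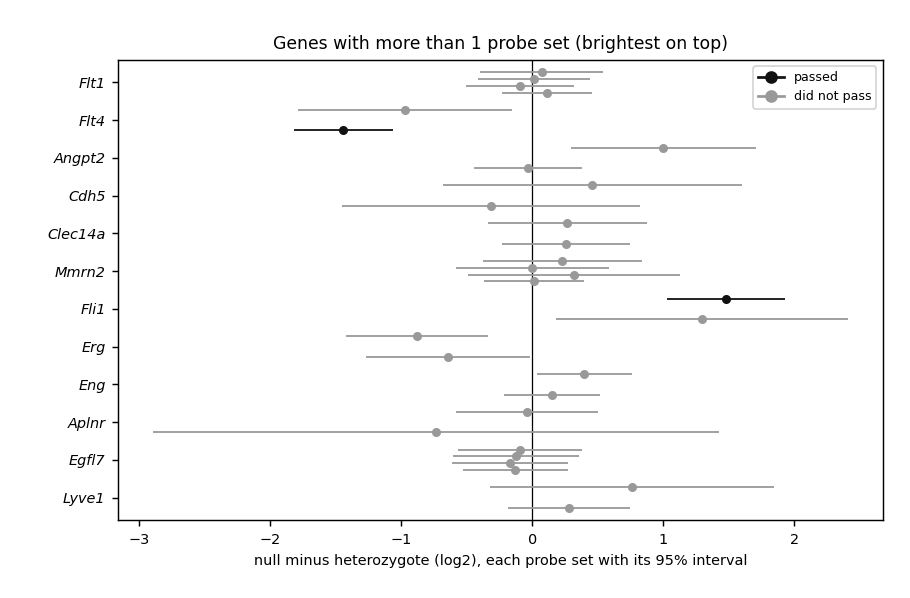
Changes (null minus heterozygote, log2) with 95% intervals are drawn for each probe set of the 12 endothelial genes that have more than 1, the brightest on top within a gene, and black marks those that passed when all probe sets were tested as units. The dimmer Flt4 probe set at -1.44 and the brighter Fli1 probe set at 1.48 passed, and the probe sets of Flt1, Angpt2, Cdh5 and Mmrn2 differ in sign.

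Hybridization controls matched the arrays into 3 pairs, each with 1 array of either genotype: heterozygote 1 with null 3, heterozygote 2 with null 1, and heterozygote 3 with null 2. This matching comes from the values and not from the labels. Within pair 1 the median change of the 31 genes was -0.43, with 24 negative. The median was 0.13 within pair 2 and 0.39 within pair 3, where 25 were positive, while the medians over all genes were -0.06, -0.01 and 0.03. The small median over all arrays is thus made of opposed values within pairs. In 18 of 31 members the change was negative in pair 1 and positive in pair 3, as it was in 27.6% of all genes.

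Members that kept 1 sign in all 3 pairs numbered 10, and 42.7% of all genes did so. Those above 0 were Fli1, Angpt2, Cd34, Eng, Stab1 and Stab2, and those below were Ramp2, Flt4, Erg and Robo4. Fli1 was at 1.10, 1.69 and 1.65 in pairs 1, 2 and 3, and Ramp2 at -1.54, -1.93 and -1.21. With the pair as a block, 5 members passed where 4.56% of all genes did, Angpt2 joining Fli1 above and Erg and Flt4 joining Ramp2 below (limma, adjusted p = 0.0426 for Angpt2, 0.0295 for Erg and 0.0240 for Flt4). Of all genes, 1.90% fell in that fit and 2.67% rose.

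**Figure D4:**
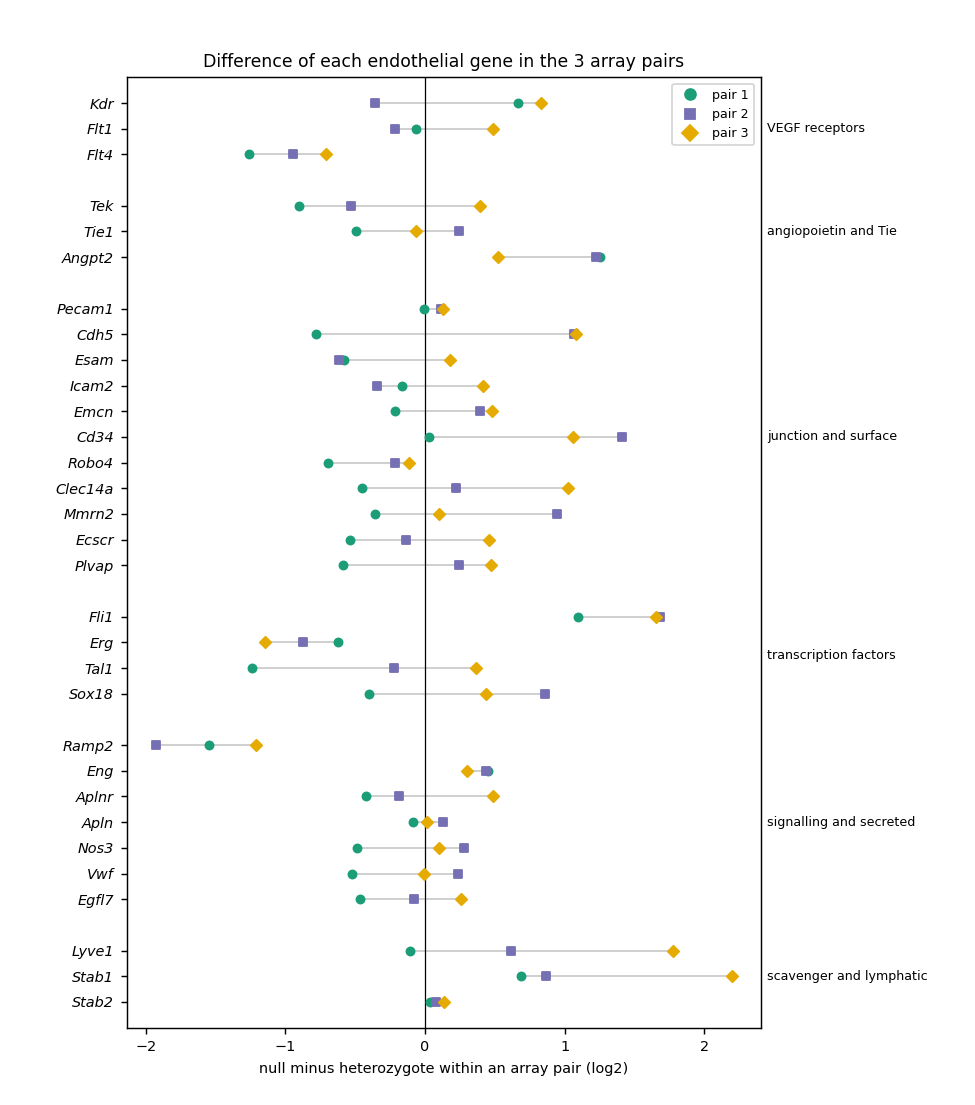
Each row shows the difference between the null and the heterozygote array (log2) of 1 endothelial gene in array pairs 1, 2 and 3. Fli1, Angpt2, Ramp2, Flt4 and Erg keep their sign in all 3 pairs, and Cdh5, Tal1 and Clec14a, at -0.78, -1.24 and -0.45 in pair 1, are at 1.08, 0.37 and 1.03 in pair 3.

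Single arrays were often the highest of their genotype, heterozygote 1 across all genes as well as in the members. Heterozygote 1 was the highest heterozygote for 20 of 31 genes (64.5%), among them Plvap, Tek, Tal1, Esam and Aplnr, and for 52.3% of all genes. Null 2 was the highest null for 21 of 31 (67.7%), against 34.0% of all genes. The same arrays were highest in their genotype for 8 of 10 erythroid markers each, whose summed intensity spanned 3006 to 9008 in heterozygotes and 4961 to 11308 in nulls. The embryonic globin Hbb-y was at 11.44 ± 0.73 and 11.84 ± 0.38 (SD, n = 3 each), and 0 of the 10 erythroid markers passed in limma, also at an unadjusted p under 0.05, those with the smallest p being Klf1 (change 0.88), Hba-x (0.67), Epor (0.31) and Hbb-y (0.40). Among 7 megakaryocyte markers none passed either, and 1 was at an unadjusted p under 0.05, where 9.73% of all genes were. Their smallest p belonged to Gp1bb (change 0.53), Pf4 (1.15), Ppbp (-0.50) and Itgb3 (-0.27). The part of blood cells in the endothelial values was not tested.

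Further genes of the vasculature differed less between genotypes than the members did. Of 28 other endothelial genes 0 passed over all genes (limma), where 1.39% of all genes did. At an unadjusted p under 0.05 stood 4, where 9.73% of all genes did. Of the 28 changes, 17 were above 0, with a median of 0.06. The median size was 0.18, against 0.30 in the members and 0.15 over all genes. Within pairs 1, 2 and 3 the median change of the 28 was -0.05, 0.10 and 0.09, against -0.43, 0.13 and 0.39 in the members. Adgrf5, an adhesion receptor of endothelium that is also made by epithelia, was at 5.54 ± 0.65 in heterozygotes and 7.33 ± 0.56 in nulls (SD, n = 3 each; limma, adjusted p = 0.0797), and passed without heterozygote 1. Rhoj, a small GTPase, and Efnb2, an ephrin of arteries, had changes of -0.67 ± 0.18 and -0.81 ± 0.28 (SE), and S1pr1, the receptor for sphingosine phosphate, of 0.57 ± 0.22. These 4 passed with the pair as a block. Of the 28 genes, 9 had dim means, S1pr1 among them, and differences are compressed at such levels.

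Among 22 ligands, co-receptors and related regulators, 1 rose over all genes and 0 fell, where 0.808% and 0.583% of all genes did. Their median change was 0.12. In limma, 7 of the 22 (31.8%) were at an unadjusted p under 0.05, 6 higher and 1 lower in null, where 9.73% of all genes were. Nrp2, a co-receptor that binds Vegfc and semaphorins beside Flt4, went from 7.41, 6.78 and 6.64 in heterozygotes to 8.01, 8.34 and 8.49 in nulls, a rise of 1.34 ± 0.24 (SE; limma, adjusted p = 0.0412). The call for Nrp2 was lost after median centring and without any 1 array other than heterozygote 1. Vegfd, the second ligand of Flt4, was at 4.37 ± 0.08 in heterozygotes and 5.21 ± 0.17 in nulls (SD, n = 3 each), all nulls higher, and just missed the threshold (limma, adjusted p = 0.0501). Sema3e and its receptor Plxnd1 had changes of 0.76 ± 0.19 and 0.79 ± 0.20 (SE). Of the 22 genes, 3 had dim means, Vegfd and Sema3e among them, and differences are compressed at such levels. Vegfa and Vegfc, at changes of 0.02 and 0.20, and Angpt1, at 0.30, overlapped between genotypes. With the pair as a block 6 of the 22 rose, namely Nrp2, Vegfd, Sema3e, Plxnd1, Angptl4 and Fgd5, where 2.67% of all genes did.

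Pericytes wrap endothelial tubes and respond to platelet-derived growth factor through Pdgfrb. Of 8 pericyte markers, Pdgfrb rose by 1.90 ± 0.18 and Rgs5 by 1.55 ± 0.29 (SE), where 0.808% of all genes rose. Of the 8 changes, 7 were above 0, and the median was 0.75. In limma, 5 of the 8 (62.5%) were at an unadjusted p under 0.05, 4 higher and 1 lower in null, where 9.73% of all genes were. Kcnj8, a potassium channel subunit, stood at 1.96 without passing (limma, adjusted p = 0.0559, and 0.00529 with the pair as a block), and Des, a muscle filament gene, at -0.64. None of the 8 was under the 33rd percentile, and their summed intensity ranged from 2235 to 3106 in heterozygotes and from 3660 to 4029 in nulls. Which of the sorted cells gave these values, and whether the values are tied to those of Angpt2, was not tested.

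**Figure D5:**
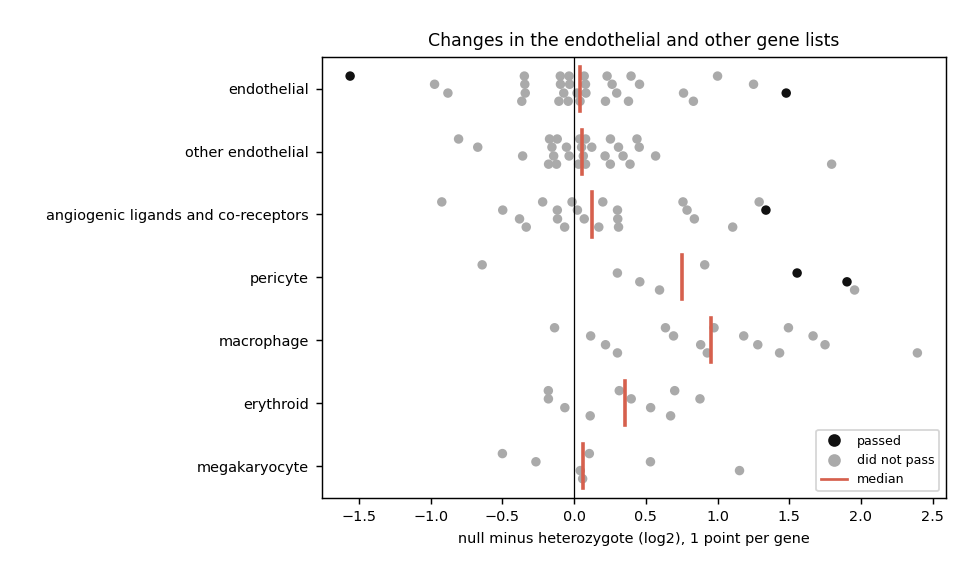
Each point is the change of 1 gene (null minus heterozygote, log2) in the 31 endothelial genes and in 6 other lists, with black for genes that passed and a red bar at the median. The medians are 0.04 for the endothelial genes, 0.06 for other endothelial genes, 0.12 for ligands and co-receptors, 0.75 for pericyte, 0.95 for macrophage, 0.36 for erythroid and 0.06 for megakaryocyte markers.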

How the data were processed

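RNA of 6 samples was amplified from 10 ng and hybridized to 1-colour Affymetrix mouse arrays, per the labels' protocols. The authors deposited log2 values for 45101 probe sets, 64 of them array controls; affy, RMA and limma are named in the submitters' processing notes without versions. RMA equalizes distributions between arrays, which hides differences in total RNA. Of the other probe sets, 34945 had 1 symbol, and each of 18193 genes was read from its brightest probe set. Of the annotated probe sets, 932 had several symbols, and 9211 probe sets of the table were unnamed. For Ramp2, 2 probe sets shared with another gene were left out. By gene identifier, 34741 of those with 1 symbol were found in RefSeq (GRCm38.p6), with 0 symbols altered.

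Genotypes were tested in R 4.3.3 with limma 3.58.1 (lmFit, eBayes, two-sided, no covariates; Benjamini-Hochberg over all genes, threshold 0.05). The fit was tested on simulated data. The number of arrays limits precision: an exact permutation test of 3 against 3 cannot go below p = 0.10, and none was used. All members are named. Of the other lists, those named are the genes that passed and, where fewer than 4 did, the smallest p up to 4. Adm, Vegfa, Vegfc and Angpt1 were taken for their roles, and genes passing with the block after their values were seen. The members and lists were chosen with earlier results of these data known.

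Arrays were matched into pairs on 14 hybridization controls without reference to genotype. Of 15 possible matchings, that used had the smallest sum of distances (1.94, with 5.05 for the runner-up). After removal of genotype means, arrays of a pair correlated across genes at 0.377 or more, and arrays of opposite genotype from different pairs at 0.0972 at most. No 2 arrays of a genotype were copies (correlations 0.976 to 0.991 over all probe sets). Alternatives were a trended prior, a filter at the 33rd percentile, quantile normalization, median centring, the mean over probe sets, the pair block and omission of each array. Background correction could not be varied on RMA values.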

Additional observations from a re-analysis of the deposited data

How the results depend on the processing

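The 2 calls among the endothelial genes, Fli1 and Ramp2, held in limma with a trended prior, a filter at the 33rd percentile (20 members left), quantile normalization and median centring, and the count was 3 with probe sets averaged. With the array pair block it was 5, the count of other endothelial genes 4 instead of 0, that of ligands and co-receptors 6 instead of 1, and that of member probe sets 4 instead of 2. Over all genes the block gave 830 calls against 253, and averaging 368. The ligand count was 2 with quantile normalization and 0 with median centring. With 1 array left out, the counts ranged from 0 to 2 for members, 0 to 1 for other endothelial genes, 0 to 4 for ligands and co-receptors and 0 to 2 for member probe sets; the cause was not tested. Such fits have fewer samples, and they gave 84 (without heterozygote 3) to 318 calls (without heterozygote 1) over all genes, with 98 without heterozygote 2, 86 without null 1 and 110 without null 2. The median change was 0.04, -0.43 within pair 1, 0.39 within pair 3, 0.22 over the 20 members left by the filter, and from -0.045 (without null 2) to 0.14 (without heterozygote 1) with 1 array left out; it was also below 0 without heterozygote 2 or 3. Median centring moved the median of all genes to -0.05.

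The sign of the change turned in 14 genes, which passed in none of these fits. Apln was at -0.010 with median centring. With 1 array left out, the ranges were -0.037 to 0.99 for Cdh5, -0.13 to 0.22 for Flt1, -0.63 to 0.018 for Tek, -0.22 to 0.032 for Tie1, -0.22 to 0.061 for Egfl7, -0.13 to 0.33 for Plvap, -0.18 to 0.083 for Icam2, -0.0017 to 0.48 for Mmrn2, -0.13 to 0.12 for Nos3, -0.27 to 0.027 for Vwf, -0.19 to 0.15 for Aplnr, -0.051 to 0.14 for Apln, -0.25 to 0.16 for Ecscr and -0.045 to 0.18 for Stab2. No paired analysis from replicate numbers was possible because the labels give the genotypes no shared numbers.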
